A study of Homo sapiens with 24 samples.

Results

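Mitochondrial beta-oxidation was followed through the transcripts of 10 of its enzymes, ACADVL, ACADM, ACADS, ACADSB, HADHA, HADHB, ECHS1, HADH, ECI1, and ECI2, in MB468 (MDA-MB-468), a cell line from a metastatic breast tumor, and in the clone MB468res-R8 (MDA-MB-468res-R8). The enzymes were chosen by gene symbol, with earlier results of these data known, so counts of enzymes called are descriptions. All 10 were among the 26645 gene entries of the count table, and all 10 were among the 14741 genes that had enough reads to be tested. The 24 RNA libraries fall into 8 groups of 3. Both lines were sampled in methionine-containing growth medium with 100 μM L-methionine (Met+, 0 h) and at 0.5, 2, and 12 h after a switch to methionine-free medium with 370 μM DL-homocysteine (Met-Hcy+). MB468 is a triple negative, methionine-dependent line. MB468res-R8 is a single methionine-independent clone obtained from it by prolonged culture in homocysteine medium, so the line comparison rests on 1 clone. All groups share the dialyzed serum, vitamin B12, glutamine, and cysteine of the growth medium. No group was kept in Met+ medium for 0.5, 2, or 12 h. A response at any of these times cannot be told apart from the handling of a medium change or other changes with time in culture. The labels do not say whether the 3 libraries of a group came from separate cultures, so that every p-value measures only the spread between these libraries.

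Fatty acids enter the mitochondrial matrix as acyl-carnitines and are shortened there in a repeating cycle of 4 steps that releases acetyl-CoA. An acyl-CoA dehydrogenase makes a double bond, an enoyl-CoA hydratase adds water across it, a hydroxyacyl-CoA dehydrogenase oxidizes the product, and a thiolase cleaves it. ACADVL, ACADM, and ACADS are the dehydrogenases for very long, medium, and short straight chains, and ACADSB acts on short branched chains and takes part in isoleucine breakdown. HADHA and HADHB are the alpha and beta subunits of the trifunctional protein of the inner membrane, which carries out the last steps on long chains, with HADHB holding the thiolase. ECHS1 (hydratase) and HADH (dehydrogenase) act on shorter chains in the matrix. ECI1 and ECI2 are isomerases that move the double bonds of unsaturated fatty acids into the position the cycle can use.

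Library totals lay between 11745553 and 36496655 counts with a median of 20503827, spike-in RNA took 0.201% to 0.303% of them, and the enzymes together took 0.0936% to 0.127% of the gene counts. Raw counts of the enzymes ran from 81 (ACADS, MB468 at 12 h, replicate 2) to 12712 (ACADVL, MB468res-R8 at 2 h, replicate 2), so ACADS, ACADSB, and ECI2 are the least precise. In MB468 at 2 h, replicate 2 stood apart by 8251 counts of RN7SK, a small nuclear RNA, against at most 357 elsewhere. Epithelial cells were read by 9 markers, EPCAM, CDH1, KRT5, KRT6A, KRT17, KRT8, KRT18, KRT19, and EGFR. The 8 other than KRT6A were at 248.8 CPM (counts scaled to the library total) or more in every library of both lines. KRT6A was at 0.427 to 20.5 CPM in MB468 and 1.01 to 41.0 in MB468res-R8. Of 6 fibroblast markers, the 5 other than COL1A1 were at 0.649 CPM or less (summed list 15.6 to 38.7 CPM in MB468 and 28.7 to 72.9 in MB468res-R8), and of 5 leukocyte markers the 3 other than CD14 and CD68 were at 0.192 CPM or less (summed list 66.5 to 164 CPM in MB468 and 30.0 to 67.7 in MB468res-R8). PTPRC, the defining leukocyte marker, was among these 3. Their part in the results was not tested. Of the receptors low in triple negative cells, PGR was at 0 to 0.0975 CPM, ESR1 at 4.07 to 22.1 CPM, and ERBB2 at 37.5 to 94.9 CPM.

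The genes lie on 8 chromosomes (GRCh38, GENCODE 44). ACADM is at chr1:75724431-75787575 on the plus strand, HADHA at chr2:26190635-26244672 on the minus strand, and HADHB at chr2:26243170-26290465 on the plus strand. HADH is at chr4:107989714-108035241 (plus), ECI2 at chr6:4115693-4135597 (minus), ACADSB at chr10:123008979-123058290 (plus), and ECHS1 at chr10:133362485-133373354 (minus). ACADS is at chr12:120725774-120740008 (plus), ECI1 at chr16:2239402-2252300 (minus), and ACADVL at chr17:7217125-7225266 (plus). Counts cover the exons of each gene. The library kit does not mark strand, so reads from stretches shared with a gene on the other strand cannot be told apart. HADHA and HADHB overlap by 1503 annotated bases, ACADVL overlaps DLG4 by 2717, and ACADM overlaps RABGGTB, on its own strand, by 1379. ECI2 overlaps the pseudogene TEX56P, on the other strand, over 15259 bases.

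HADHA and HADHB are transcribed away from each other, with RefSeq start sites 307 bases apart on chromosome 2. Their upstream stretches are shown because the subunits have this region in common, yet in MB468 at 12 h HADHA fell more than HADHB. In the main test HADHA was called lower and HADHB was not, though HADHB was called under some alternatives given below. In MB468res-R8 neither was called, and a part of this region in the response was not tested. Each is the 250 bases before the start site in RefSeq (GRCh38.p14), printed 5′ to 3′ on the strand of its gene, and capitals mark the 194 bases (chr2:26244689-26244882) that lie in both windows, as reverse complements.
HADHA, chr2:26244633-26244882, minus strand: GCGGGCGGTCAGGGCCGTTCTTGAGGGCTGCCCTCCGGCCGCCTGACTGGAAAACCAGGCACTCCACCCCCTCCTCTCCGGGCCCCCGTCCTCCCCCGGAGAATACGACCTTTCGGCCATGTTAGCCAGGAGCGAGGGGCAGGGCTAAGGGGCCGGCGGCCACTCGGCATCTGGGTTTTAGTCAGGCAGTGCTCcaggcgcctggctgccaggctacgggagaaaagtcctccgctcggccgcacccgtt
HADHB, chr2:26244689-26244938, plus strand: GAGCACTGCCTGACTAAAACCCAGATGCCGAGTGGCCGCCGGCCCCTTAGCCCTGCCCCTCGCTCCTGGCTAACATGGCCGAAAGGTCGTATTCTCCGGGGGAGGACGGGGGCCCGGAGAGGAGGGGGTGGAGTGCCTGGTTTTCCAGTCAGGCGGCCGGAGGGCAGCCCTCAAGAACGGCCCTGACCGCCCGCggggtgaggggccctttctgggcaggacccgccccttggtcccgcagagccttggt
The 300-base windows around the start sites (250 bases before, 50 after) were searched on both strands for 6 motifs. All 10 genes matched an entry, with 13 windows in all, since HADH, ECI2, and ACADVL have 2 start sites each. The CCAAT box (CCAAT) was found in 1 of the 13, a window of HADH, at 136 bases before the start, against 34.6% of 35116 human windows of the same length. The letters searched for ERR (TNAAGGTCA, in 0.951% of windows), NRF1 (GCGCANGCG, 7.52%), GABP (CCGGAAGT, 4.14%), the sterol element (TCACNCCAC, 1.13%), and ATF4 (TGATGCAA, 0.866%) were found in none of the 13 windows.

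Per length of annotated exons, ECHS1 was the most abundant of the transcripts in Met+ medium, at 119 ± 4.58 RPKM (read counts scaled by gene length and library total, SD, n = 3) in MB468 and 117 ± 4.62 in MB468res-R8. HADHA followed at 82.9 ± 0.866 and 79.6 ± 2.08 RPKM, and ACADVL at 68.5 ± 0.900 and 72.2 ± 1.40. HADHB stood at 23.9 ± 0.192 and 27.0 ± 0.764 RPKM and ECI1 at 15.2 ± 0.537 and 12.97 ± 0.186. Lower in the order were ACADM (7.87 ± 0.0893 and 7.48 ± 0.323 RPKM), HADH (6.33 ± 0.0969 and 5.56 ± 0.118), ACADS (3.98 ± 0.479 and 4.597 ± 0.753), ECI2 (3.13 ± 0.223 and 3.81 ± 0.310), and ACADSB (2.96 ± 0.355 and 2.34 ± 0.208). In MB468 the ranges of ECI2 and ACADSB came within 1 SD of each other, as did those of ACADS and ECI2 in MB468res-R8, so these neighbors are not resolved. The order was the same in both lines. With the longest annotated transcript as the length, ACADVL moved to the first place (140 ± 1.84 RPKM in MB468), since the union of its exons is 4820 bases and its longest transcript 2352. ACADM and HADH kept places 6 and 7 but stood higher by that length, at 17.8 ± 0.202 and 12.2 ± 0.187 RPKM in MB468. Their exon unions are 13774 and 12881 bases and their longest transcripts 6094 and 6677, so the levels depend on the length used. The annotation release behind the counts is not given, so neither length need be the one counted over.

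**Figure D1:**
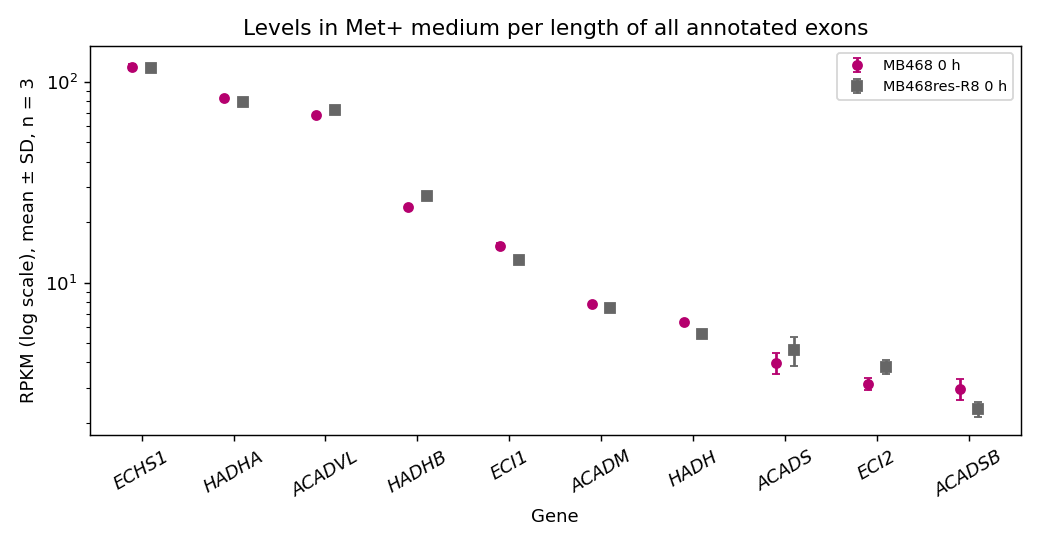
RPKM per length of all annotated exons (log axis) for each enzyme in Met+ medium, as mean ± SD of 3 libraries, with circles for MB468 and squares for MB468res-R8. ECHS1, HADHA, and ACADVL lie above 68 RPKM and the other 7 below 28 RPKM in both lines.

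The first comparison asked whether the clone already differed from its parent in Met+ medium. Genes were called at an adjusted p under 0.05 (edgeR's quasi-likelihood test, Benjamini-Hochberg over every gene tested). By this rule 5 of the 10 enzymes differed, 2 higher and 3 lower in MB468res-R8. Of all genes 53.5% were called, 26.4% higher and 27.1% lower, so the share of enzymes is close to that of all genes. HADHB had 2308, 2347, and 2312 normalized counts (counts scaled to a common library size with edgeR's TMM factors) in MB468 and 2679, 2573, and 2701 in MB468res-R8, without overlap (log2 fold change 0.19 ± 0.04 SE, adjusted p = 0.000205). ECI2 had 309.6, 353, and 315 in MB468 against 404, 367, and 429 in MB468res-R8 (0.29 ± 0.10, adjusted p = 0.0109). ECI1 was lower in MB468res-R8, at 959, 967, and 932 normalized counts against 1069.6, 1109.95, and 1142 (-0.21 ± 0.06, adjusted p = 0.00173). ACADSB (-0.32 ± 0.10, adjusted p = 0.00746) and HADH (-0.18 ± 0.05, adjusted p = 0.00144) were also lower, again without overlap of the libraries. The isomerases thus stood on opposite sides. ACADVL (0.09 ± 0.04), ACADM (-0.06 ± 0.05), ACADS (0.20 ± 0.12), HADHA (-0.05 ± 0.04), and ECHS1 (-0.01 ± 0.04) did not pass the test. The call of ECI2 was lost without MB468 replicate 1 (adjusted p = 0.0554) or MB468res-R8 replicate 3 (0.0553), and that of ACADSB without MB468res-R8 replicate 2 (0.0616).

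In such bulk RNA, fewer cells with a transcript and less of it per cell cannot be told apart, and directions are relative to the bulk of genes. With spike-in totals as library sizes the median of all genes moved to -0.31 on the log2 scale at 0 h, to -0.20 in MB468 at 0.5 h, to -0.42 at 2 h, and to -0.23 at 12 h, while it stayed within 0.05 of 0 in MB468res-R8. The sources used here do not say whether spike-ins were added per cell or per amount of RNA, so these values cannot be read as amounts per cell. The spike-in share also varied within groups, from 0.214% to 0.288% in MB468res-R8 at 0.5 h. Under that scaling no enzyme was higher and 6 were lower in MB468res-R8 at 0 h, with HADHB at -0.12 and ECI2 at -0.01, beside 7.76% of all genes called higher and 44.1% lower. Relative to the median of all genes, the enzymes' median was -0.03 at 0 h under either scaling.

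At 0.5 h in Met-Hcy+ medium 1 of 10 enzymes was called in MB468, ACADM, which rose to 2767 ± 217 normalized counts (SD, n = 3) from 2462 ± 30.0 (log2 fold change 0.17 ± 0.05, adjusted p = 0.00428). In this comparison 33.9% of all genes were called, and 17.6% of all genes were called higher. Without MB468 replicate 2 at 0.5 h the change of ACADM was 0.11 (adjusted p = 0.101), and with spike-in scaling it was -0.04. Without replicate 3 at 0.5 h, 3 enzymes were called, ACADM and, lower, ACADVL (-0.14, adjusted p = 0.0112) and ECI1 (-0.17, adjusted p = 0.0317). In MB468res-R8 at 0.5 h edgeR called 0 of 10 against 33.7% of all genes. At an unadjusted p under 0.05 there was 1, against 41.3% of all genes, and DESeq2's Wald test called 1, ACADVL (-0.12, adjusted p = 0.0239).

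At 2 h edgeR called 0 of 10 enzymes in MB468, where 16.3% of all genes were called, and 2 had an unadjusted p under 0.05, against 26.9% of all genes. Log2 fold changes ran from -0.15 (ECI2) to 0.11 (HADHB). In MB468res-R8 0 of 10 were called against 4.37% of all genes, none had an unadjusted p under 0.05 against 13.7% of all genes, and the changes ran from -0.05 (ECHS1) to 0.10 (ACADS). DESeq2's Wald test called 0 in both lines. For HADHA, among the most precisely measured, the 95% interval at 2 h was -0.03 to 0.12 in MB468 and -0.04 to 0.11 in MB468res-R8. For ACADS, with the fewest reads, it was wider, -0.38 to 0.11 and -0.13 to 0.33. With spike-in scaling all 10 were called lower in MB468 at 2 h, from -0.59 (ECI2) to -0.31 (HADHB), a spread around the -0.42 by which all genes moved, and 62.9% of all genes were called lower. The direct tests of a different response in the lines called 0 of 10 at 0.5 h (1 at an unadjusted p under 0.05, against 13.1% of all genes, with 2.90% of all genes called) and 0 of 10 at 2 h (2 at an unadjusted p under 0.05, against 15.9% of all genes, with 5.07% of all genes called), and DESeq2 called 0 in each.

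**Figure D2:**
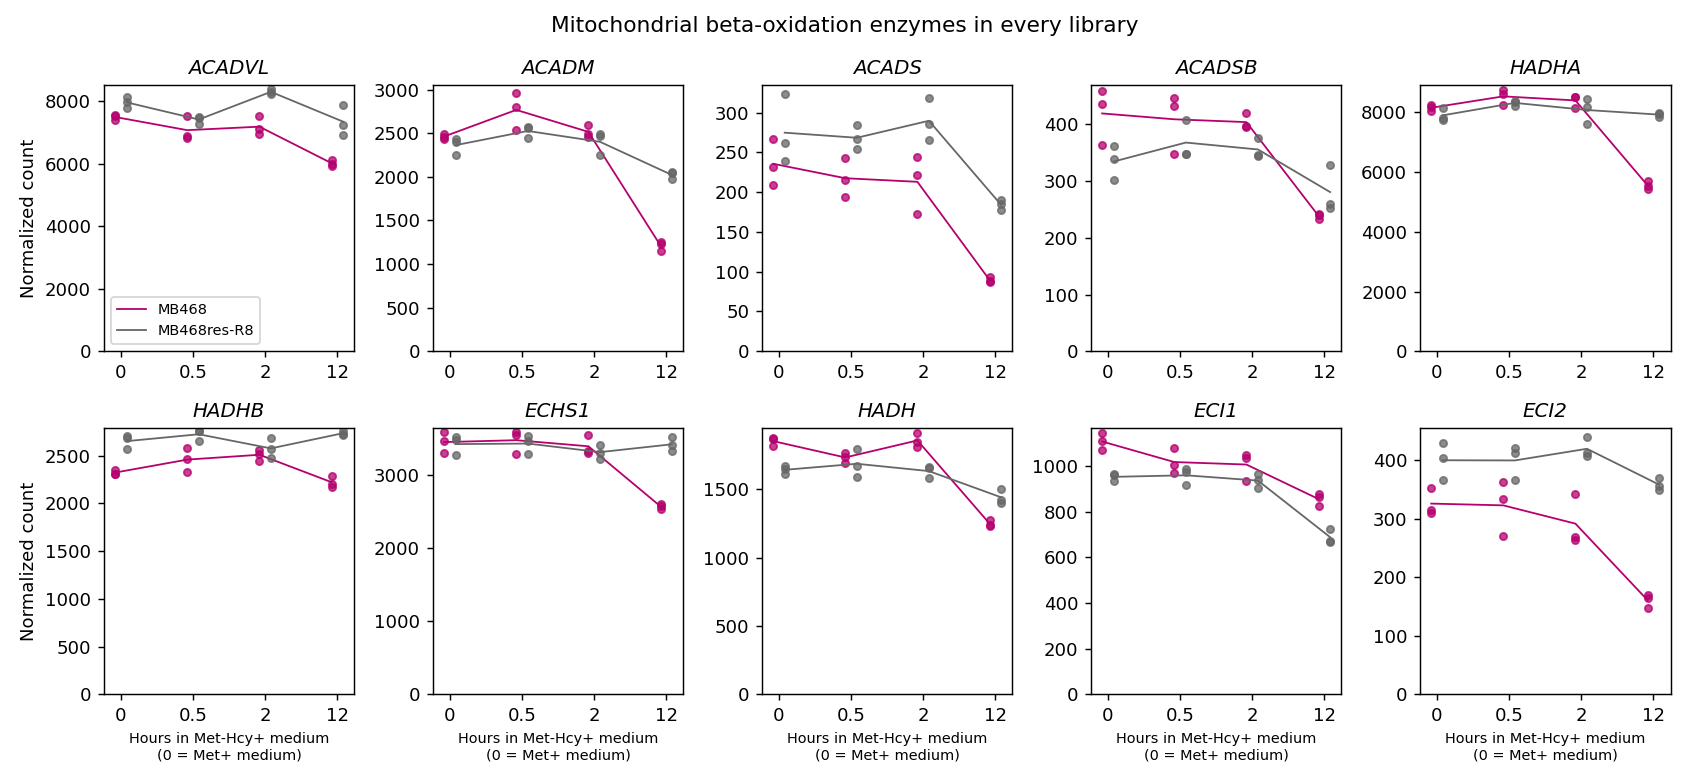
Normalized counts of each enzyme in all 24 libraries (points) with the group means joined by lines, MB468 in magenta and MB468res-R8 in gray, against hours in Met-Hcy+ medium at even spacing (0 is Met+ medium). The lowest group mean of each enzyme other than ECI1 is MB468 at 12 h, and HADHB lies between 2176 and 2282 there against 2308 to 2347 at 0 h.

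At 12 h, 9 of the 10 enzymes had fallen in MB468 and none had risen, against 34.7% of all genes called lower. In MB468res-R8 6 of the 10 had fallen and none had risen, against 31.1% of all genes called lower. The median log2 fold change of the enzymes was -0.56 in MB468 and -0.17 in MB468res-R8, beside 0.01 and -0.02 for all genes tested. With spike-in scaling the medians were -0.80 and -0.15, and 10 and 2 were called lower, against 40.2% and 21.2% of all genes. The share in MB468res-R8 was then close to that of all genes. Relative to all genes the median was then -0.57 in MB468 and -0.15 in MB468res-R8. The 2 lines are read against their own 0 h libraries and share none.

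Among the acyl-CoA dehydrogenases, ACADS fell most. Its 3 libraries had 266, 231, and 209 normalized counts at 0 h in MB468 and 92.9, 87.4, and 88.7 at 12 h (log2 fold change -1.40 ± 0.12 SE, adjusted p = 5.28e-13 by edgeR). In MB468res-R8 they went from 239, 262, and 323 to 177, 190.2, and 185 (-0.57 ± 0.12, adjusted p = 6.65e-05). Neither pair of groups overlapped, and the 12 h level in MB468 was 37.9% of that at 0 h. ACADM, the medium-chain enzyme, had 2438, 2496, and 2452 at 0 h in MB468 and 1155, 1233, and 1248 at 12 h (-1.02 ± 0.05, adjusted p = 4.19e-21). In MB468res-R8 it had 2401, 2253, and 2435 at 0 h and 1971, 2041, and 2050.3 at 12 h (-0.23 ± 0.05, adjusted p = 0.000123). The 12 h libraries of both lines thus lay below their 0 h libraries, at 49.2% of the 0 h level in MB468 and 85.5% in MB468res-R8. RABGGTB, a subunit of the Rab geranylgeranyl transferase, has a gene that takes in some exon sequence of ACADM. It had 2702 ± 32.4 and 1627 ± 44.4 normalized counts at 0 and 12 h in MB468 and 1964 ± 53.3 and 3569 ± 89.7 in MB468res-R8. Its part in the ACADM counts was not tested.

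ACADSB, which acts on branched chains, fell from 363, 436, and 458 normalized counts to 242, 241, and 233 in MB468 (-0.81 ± 0.10, adjusted p = 2.89e-09). In MB468res-R8 its libraries overlapped, with 362, 302, and 339 at 0 h and 253, 329, and 259.6 at 12 h (-0.26 ± 0.10, adjusted p = 0.0255). That call was lost without MB468res-R8 replicate 1 at 0 h (adjusted p = 0.210) and without replicate 1 (0.196) or 3 (0.160) at 12 h. ACADVL, the entry enzyme for very long chains, changed least of the 4. It went from 7534, 7411, and 7565 normalized counts to 6003, 5935, and 6136 in MB468 (-0.32 ± 0.04, adjusted p = 1.04e-08). In MB468res-R8 the change was from 7973, 8150.4, and 7793 to 7881, 6929, and 7254 (-0.12 ± 0.04, adjusted p = 0.0150), with overlap, and it was no longer called without any 1 of 4 libraries, replicates 1 and 2 at 0 h (adjusted p = 0.0917 and 0.0562) and replicates 2 and 3 at 12 h (0.132 and 0.139). DLG4, whose gene takes in some exon sequence of ACADVL, had 385 ± 21.2 and 295 ± 24.5 normalized counts at 0 and 12 h in MB468 and 569 ± 25.8 and 495 ± 24.5 in MB468res-R8. Its part in the ACADVL counts was not tested.

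The subunits of the trifunctional protein parted in MB468. HADHA fell from 8169.8, 8250.1, and 8037 normalized counts at 0 h to 5521, 5434, and 5709 at 12 h (-0.55 ± 0.04, adjusted p = 1.96e-16). HADHB had 2308, 2347, and 2312 at 0 h and 2176, 2282, and 2206 at 12 h, a shift of -0.07 ± 0.04 that did not pass the test (adjusted p = 0.162, 95% interval -0.15 to 0.02). All 3 of its 12 h libraries lay below its 0 h libraries, and DESeq2's Wald test put it just past the threshold (-0.09, adjusted p = 0.0495). With spike-in scaling edgeR called HADHB lower (-0.30, adjusted p = 0.0394), where the median of all genes was -0.23. In MB468res-R8 neither subunit was called, with HADHA at 0.00 ± 0.04 (adjusted p = 0.930, 95% interval -0.07 to 0.08) and HADHB at 0.04 ± 0.04 (adjusted p = 0.370, 95% interval -0.04 to 0.13).

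The ratio of HADHA to HADHB counts within each library does not depend on scaling between libraries. The genes overlap by 1503 bases and the reads carry no strand, and the part of this overlap in the ratio was not tested. In MB468 it was 3.54, 3.52, and 3.48 at 0 h and 2.54, 2.38, and 2.59 at 12 h. The means were 3.51 ± 0.0320 (SD, n = 3) at 0 h, 3.48 ± 0.127 at 0.5 h, 3.35 ± 0.0304 at 2 h, and 2.50 ± 0.108 at 12 h. In MB468res-R8 they were 2.98 ± 0.160, 3.05 ± 0.0863, 3.14 ± 0.0583, and 2.90 ± 0.0234, and the 0 h and 12 h libraries overlapped. This ratio was chosen after the values were seen. An exact two-sided permutation test gave p = 0.1 for 12 h against 0 h in MB468, the smallest that 3 against 3 libraries allow, so the design cannot reach 0.05, and p = 0.7 in MB468res-R8 (adjusted over 4 such tests, 0.133 and 0.7 by the same permutation). The tests of the lines against each other at 0 h and at 12 h also gave p = 0.1 by the exact permutation, with MB468res-R8 below MB468 at 0 h and above it at 12 h.

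**Figure D3:**
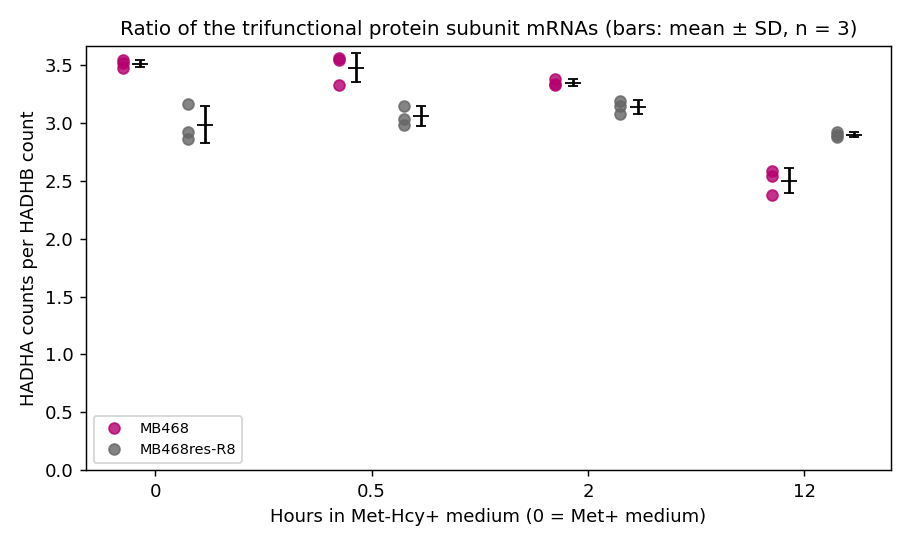
HADHA counts per HADHB count in each library (points) with mean ± SD (black bars, n = 3) against hours in Met-Hcy+ medium, from 0 on the vertical axis. MB468 goes from 3.51 at 0 h to 2.50 at 12 h, and MB468res-R8 stays between 2.86 and 3.19 in all 12 libraries.

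The matrix enzymes of the middle steps also differed between the lines. ECHS1 fell in MB468 from 3579, 3456, and 3298 normalized counts to 2527, 2597, and 2577 (-0.43 ± 0.04, adjusted p = 2.23e-11), and had 3512, 3263, and 3475 at 0 h and 3324, 3509.7, and 3411 at 12 h in MB468res-R8 (-0.00 ± 0.04, adjusted p = 0.974, 95% interval -0.09 to 0.09). HADH fell in both lines, by 0.57 ± 0.05 on the log2 scale in MB468 (adjusted p = 3.38e-14) and by 0.19 ± 0.05 in MB468res-R8 (adjusted p = 0.000688). Its 12 h libraries lay below the 0 h libraries in each line, at 1231 to 1279 against 1814 to 1875 normalized counts in MB468 and 1398 to 1502 against 1613 to 1669.7 in MB468res-R8.

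Of the isomerases, ECI2 fell in MB468 and ECI1 in both lines. ECI2 had 309.6, 353, and 315 normalized counts at 0 h in MB468 and 165, 169, and 148 at 12 h (-1.03 ± 0.10, adjusted p = 1.11e-11), which is 49.0% of the 0 h level. In MB468res-R8 it had 404, 367, and 429 at 0 h and 349.6, 369, and 356 at 12 h, which overlap (-0.16 ± 0.10, adjusted p = 0.151, 95% interval -0.35 to 0.04). ECI1 went from 1069.6, 1109.95, and 1142 to 877, 864, and 826 in MB468 (-0.37 ± 0.06, adjusted p = 2.71e-07), and 959, 967, and 932 to 726, 666, and 673 in MB468res-R8 (-0.47 ± 0.06, adjusted p = 9.06e-09). Of the enzymes it had the second largest fall in MB468res-R8, after ACADS, and the third smallest change in MB468, before ACADVL and HADHB.

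**Figure D4:**
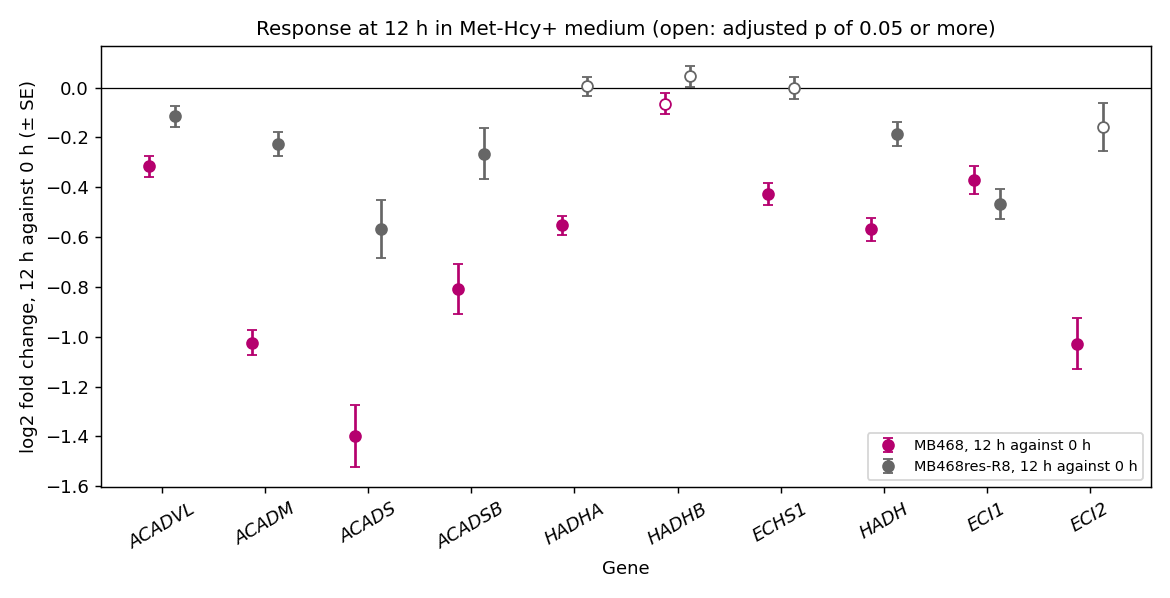
Log2 fold change at 12 h in Met-Hcy+ medium against 0 h for each enzyme (point ± SE, 3 libraries a group), MB468 in magenta and MB468res-R8 in gray, with open points where the adjusted p was 0.05 or more. MB468 spans -1.40 (ACADS) to -0.07 (HADHB), MB468res-R8 spans -0.57 (ACADS) to 0.04 (HADHB), and ECI1 is the one enzyme with its lower point in MB468res-R8.

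The 12 h libraries were also read against those at 2 h, which were in Met-Hcy+ medium as well. With the medium the same in both, this is a comparison of times, and it does not replace the missing 12 h Met+ group. All 10 enzymes were lower at 12 h than at 2 h in MB468, where 35.1% of all genes were called lower, with a median of -0.58. HADHB was among them (-0.18 ± 0.04, adjusted p = 0.000416). In MB468res-R8 7 were lower, where 31.8% of all genes were called lower, with a median of -0.20, and HADHA (-0.03 ± 0.04), ECHS1 (0.05 ± 0.04), and HADHB (0.09 ± 0.04, adjusted p = 0.0673) did not pass. The 12 h libraries are the same as in the comparisons with 0 h. ECI2 was lower in MB468res-R8 by this reading (-0.22 ± 0.10, adjusted p = 0.0385) but not without any 1 of 5 of the 6 libraries (adjusted p from 0.0501 to 0.171), and ACADSB was no longer called without replicate 1 at 12 h (adjusted p = 0.0513). HADHB was called higher without replicate 3 at 2 h (0.14, adjusted p = 0.00790) and without replicate 1 or 3 at 12 h (0.0283 and 0.0408), and by DESeq2's Wald test (0.10, adjusted p = 0.0319). With spike-in scaling 6 enzymes in MB468 and 2 in MB468res-R8 were called lower, against 19.5% and 20.7% of all genes.

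The 12 h changes of the lines were then set against each other in a direct test, the change in MB468res-R8 less the change in MB468. This difference was positive and called for 8 of 10 enzymes, against 26.2% of all genes called higher. The median difference was 0.48 for the enzymes and -0.05 for all genes. The largest were ECI2 (0.87 ± 0.14, adjusted p = 1.28e-06), ACADS (0.83 ± 0.17, adjusted p = 7.05e-05), and ACADM (0.80 ± 0.07, adjusted p = 8.67e-13). HADHA (0.56 ± 0.05), ACADSB (0.54 ± 0.14), ECHS1 (0.42 ± 0.06), HADH (0.38 ± 0.07), and ACADVL (0.20 ± 0.06) followed. The exceptions were HADHB (0.11 ± 0.06, adjusted p = 0.114, 95% interval -0.01 to 0.23) and ECI1 (-0.10 ± 0.08, adjusted p = 0.330, 95% interval -0.26 to 0.07). The difference for HADHB passed without any 1 of 4 libraries (MB468 replicate 3 and MB468res-R8 replicate 1 at 0 h, and MB468res-R8 replicates 1 and 3 at 12 h, adjusted p from 0.0231 to 0.0316).

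At 12 h itself, 9 enzymes stood higher in MB468res-R8 than in MB468 and 1, ECI1, lower, against 33.9% of all genes called higher and 39.2% lower. The largest gaps were ECI2 (log2 fold change 1.16 ± 0.10, adjusted p = 2.61e-13), ACADS (1.03 ± 0.13, adjusted p = 2.26e-09), and ACADM (0.74 ± 0.05, adjusted p = 1.28e-16). In each of these the lowest library of MB468res-R8 lay above the highest of MB468. ECI1 was lower by 0.31 ± 0.06 on the log2 scale (-0.31, adjusted p = 1.03e-05). ACADSB was near the threshold (0.23 ± 0.10, adjusted p = 0.0470) and did not pass without any 1 of MB468 replicates 1, 2, and 3 and MB468res-R8 replicate 2 at 12 h (adjusted p from 0.0658 to 0.394). With spike-in scaling 5 enzymes were higher and 1 lower, against 24.1% and 34.6% of all genes. These values share the 12 h libraries with the difference above.

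Across the 8 group means, the average of the enzymes' standardised levels was followed most closely by CAPN1, a calpain protease (Pearson r = 0.9984), ELOVL5, an elongase of polyunsaturated fatty acids (0.9974), and PFKM, a phosphofructokinase (0.9962), out of 6384 genes with at least 5 mean log2 CPM. These are descriptions over 8 points that share line and time. Among the enzymes, ACADM (r = 0.98), ACADS (0.97), and HADHA (0.96) followed the average of all 10 most closely, and ECI1 (0.47) and HADHB (0.57) least, with r = -0.36 between ECI1 and HADHB. HADHA and ECHS1 were the closest pair (0.98), and HADH and ACADSB came next.

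Genes around the cycle were read as lists written with earlier results of these data known, at 12 h against 0 h. The counts of every list stand beside 34.7% of all genes called lower and 36.1% higher in MB468. In MB468res-R8 these shares were 31.1% and 30.2%. Of the carnitine shuttle, which carries acyl groups across the inner membrane, 1 of 5 tested genes rose and 3 fell in MB468, and 2 fell in MB468res-R8. CRAT, a carnitine acetyltransferase, fell by 2.19 ± 0.10 on the log2 scale in MB468 and by 0.91 ± 0.15 in MB468res-R8, where it was already low at 0 h (137 ± 28.5 against 1024 ± 50.3 normalized counts in MB468). SLC22A5, the carnitine importer, rose in MB468 from 229.6 ± 7.73 to 435 ± 17.95 normalized counts (0.92 ± 0.08, adjusted p = 1.19e-12) and was at -0.09 ± 0.09 in MB468res-R8. CPT1B and CPT1C were too low to be tested.

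Of the acyl-CoA synthetases, which activate fatty acids before oxidation or esterification, 5 of 5 tested fell in MB468 and 4 in MB468res-R8. ACSL1 led in both, with 9677 ± 245 normalized counts at 0 h and 2027 ± 38.7 at 12 h in MB468 (-2.25 ± 0.04), and 10523 ± 257 and 5256 ± 191 in MB468res-R8 (-1.002 ± 0.04). Other genes of mitochondrial beta-oxidation fell in 5 of 8 cases in MB468, and in MB468res-R8 3 fell and 1 rose. ACAA2, the matrix thiolase, fell in both lines (-0.94 ± 0.06 in MB468, -0.23 ± 0.06 in MB468res-R8). ACAT1, an acetoacetyl-CoA thiolase, fell in MB468 (-0.57 ± 0.05) and rose in MB468res-R8 (0.23 ± 0.05, adjusted p = 0.000150). ACAD10, a dehydrogenase family member, fell in MB468res-R8 (-0.49 ± 0.08) and was at -0.09 ± 0.08 in MB468. With spike-in scaling 0 of the 8 were called higher and 1 lower in MB468res-R8, against 18.8% and 21.2% of all genes. ACAT1 (0.26, adjusted p = 0.105) and ACAA2 (-0.19, adjusted p = 0.238) no longer passed there.

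The electron transfer flavoprotein takes the electrons of the acyl-CoA dehydrogenases to the respiratory chain, and 2 of 5 tested genes of its list rose and 3 fell in MB468, with 1 rising and 2 falling in MB468res-R8. ETFB, its beta subunit, fell in both (-0.86 ± 0.06 and -0.46 ± 0.06). FLAD1, which makes its cofactor FAD, rose in MB468 from 1539 ± 25.8 to 3093 ± 77.9 normalized counts (1.01 ± 0.04, adjusted p = 1.26e-23) and was at 0.05 ± 0.04 in MB468res-R8. SLC25A32, a mitochondrial carrier for folate and FAD, rose in MB468res-R8 (0.60 ± 0.06) and less in MB468 (0.18 ± 0.06, but -0.05 with spike-in scaling). Of the peroxisomal pathway, 10 of 11 fell in MB468, led by the membrane transporter ABCD3 (-1.13 ± 0.05), and in MB468res-R8 9 fell and 1, ACOX2, a branched-chain acyl-CoA oxidase, rose (0.71 ± 0.18).

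Branched-chain amino acid breakdown, in which ACADSB takes part, fell in 12 of 15 genes and rose in 1 in MB468, and fell in 10 and rose in 3 in MB468res-R8. HIBADH (-0.91 ± 0.05 in MB468) and ALDH6A1 (-1.23 ± 0.10 in MB468res-R8), both of the valine branch, led the falls. AUH (0.54 ± 0.11 in MB468), a hydratase of leucine breakdown, and DBT (0.35 ± 0.07 in MB468res-R8), of the branched-chain dehydrogenase, led the rises. The citrate cycle, which takes up the acetyl-CoA, fell in 15 of 16 genes in MB468, led by SDHC (-0.73 ± 0.05), and in MB468res-R8 5 rose, led by IDH3A (0.48 ± 0.05), and 4 fell, led by OGDH (-0.42 ± 0.04). The medians of these lists in MB468 were -0.55 and -0.32, beside -0.56 for the 10 enzymes and 0.01 for all genes.

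Of the regulators of oxidation, 9 of 16 rose and 3 fell in MB468, and 6 rose and 6 fell in MB468res-R8. Of all genes, 36.1% were called higher in MB468 and 30.2% in MB468res-R8. The list pools genes of unlike action, so these counts give no single direction for oxidation. PPARGC1A, a coactivator of mitochondrial genes, rose from 71.5 ± 12.6 to 177 ± 3.30 normalized counts in MB468 (1.29 ± 0.18, adjusted p = 3.89e-08). In MB468res-R8 it was at 0.436 ± 0.755 normalized counts at 0 h and at 0 in every library at 12 h, so no response can be given. ESRRG, an orphan nuclear receptor, fell in both lines (-1.29 ± 0.17 and -1.66 ± 0.19), and NRF1, a factor for respiratory chain genes, rose in both (0.51 ± 0.07 and 0.69 ± 0.07). With spike-in scaling 4 of the 16 rose and 5 fell in MB468, against 17.2% and 40.2% of all genes, and the changes of NRF1 (0.27, adjusted p = 0.0826) and AUH (0.31, adjusted p = 0.0904) there no longer passed. In MB468res-R8 spike-in scaling left 3 of the 11 peroxisomal genes and 5 of the 15 branched-chain genes called lower, against 21.2% of all genes.

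**Figure D5:**
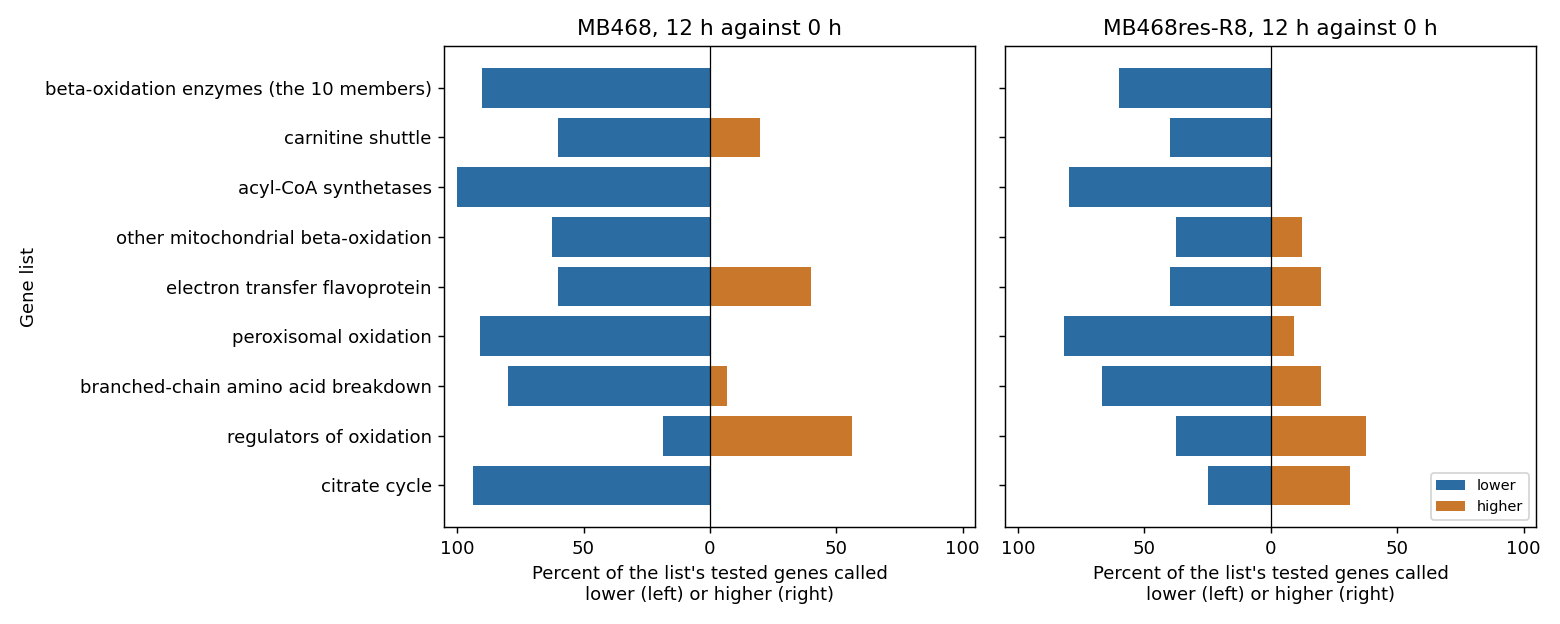
Percent of each list's tested genes called lower (blue, left) or higher (orange, right) at 12 h against 0 h in MB468 and in MB468res-R8, by edgeR at an adjusted p under 0.05. In MB468 9 of the 10 enzymes and 15 of 16 citrate cycle genes are lower and 9 of 16 regulators are higher, with TMM scaling (4 of 16 regulators with spike-in scaling). Of all genes, 34.7% were called lower and 36.1% higher in MB468 with TMM scaling, and 31.1% and 30.2% in MB468res-R8.

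The response difference between the lines, tested directly, was positive for 5 of 5 synthetases, 9 of 11 peroxisomal genes, and 14 of 16 citrate cycle genes, and 1 citrate cycle gene was negative. It was positive for 3 and negative for 2 of the 5 genes of the carnitine shuttle, positive for 4 and negative for 2 of the 8 other genes of mitochondrial beta-oxidation, positive for 3 and negative for 1 of the 5 of the flavoprotein list, and positive for 8 and negative for 3 of the 15 of branched-chain breakdown. For the regulators, a list of genes of unlike action, 4 were positive and 8 negative. Of all genes 26.2% were called positive and 30.3% negative. Among named genes of these lists, negative differences were called for SLC22A5 (-1.02 ± 0.12, adjusted p = 2.49e-09 by edgeR), FLAD1 (-0.96 ± 0.06, adjusted p = 3.11e-17), AUH (-0.56 ± 0.16, adjusted p = 0.00211), OGDH (-0.45 ± 0.06, adjusted p = 5.95e-08), ALDH6A1 (-0.45 ± 0.14, adjusted p = 0.00485), and ACAD10 (-0.40 ± 0.11, adjusted p = 0.00171). With spike-in scaling those of AUH, OGDH, ALDH6A1, and ACAD10 no longer passed (adjusted p from 0.291 to 0.623), and 2 of the 16 regulators were negative, against 11.8% of all genes.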

How the data were processed

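RNA from 24 libraries was compared. The deposited table holds raw counts that, per the labels and methods, the authors made from single-end poly(A) reads with HISAT2 2.1.0 against GRCh38/hg38 joined with 92 spike-in sequences, and with featureCounts (Subread 1.5.3) per gene. The annotation release is not given in the sources used here. Further tables, the authors' normalized values for part of the libraries and their own DESeq2 comparison (fold changes, standard errors, and p-values), were not used.

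The main analysis used edgeR 4.0.16 in R 4.3.3 (TMM, filterByExpr with a minimum count of 10 and total of 15, robust quasi-likelihood test, 1 mean per group), over all libraries, and p-values were Benjamini-Hochberg adjusted over 14741 genes. Normalized counts are counts divided by the effective library size times its mean. RPKM used library totals without TMM. Scripts were tested on simulated counts. All members were named, and of each pathway list the largest called rise and fall in each line at 12 h. Members and lists were chosen with earlier results of these data known. Alternatives were DESeq2 1.42.0, other scalings and filters, a stricter threshold, fits to the compared groups alone, a replicate block, each library left out, and the longest transcript as the length. Protein sequences were not used here. A gene that the naming rule selects is not reported here.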

Additional observations from a re-analysis of the deposited data

Results flagged for a closer look

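For 8 enzymes the 12 h response differed between the lines in the direct test (MB468res-R8 less MB468, log2, 3 libraries a group). These were ECI2 (0.87), ACADS (0.83), ACADM (0.80), HADHA (0.56), ACADSB (0.54), ECHS1 (0.42), HADH (0.38), and ACADVL (0.20), with adjusted p from 8.67e-13 (ACADM) to 0.00354 (ACADVL) by edgeR's quasi-likelihood test. For ECI2, HADHA, and ECHS1 the fall passed the test in MB468 and not in MB468res-R8. For the other 5 it passed in both lines and was the smaller in MB468res-R8. With spike-in scaling the MB468res-R8 falls of ACADM (-0.20, adjusted p = 0.21), HADH (-0.17, 0.32), ACADSB (-0.23, 0.238), and ACADVL (-0.10, 0.559) no longer passed the same test. The single clone and the absence of a 12 h Met+ group apply to all 8, and the cause was not tested. With groups of 3, single libraries were not tested as outliers.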

How the results depend on the processing

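With spike-in totals as library sizes the number of enzymes called changed from 1 to 0 in MB468 at 0.5 h, from 0 to 10 at 2 h, from 6 to 2 in MB468res-R8 at 12 h, from 10 to 6 (MB468) and 7 to 2 (MB468res-R8) at 12 h against 2 h, and from 10 to 6 between the lines at 12 h. Among values called in either fit, directions turned under that scaling for HADHB (-0.12) and ECI2 (-0.012) between the lines at 0 h, ACADM at 0.5 h in MB468 (-0.041), ACADM (-0.39), HADHA (-0.38), HADHB (-0.31), and HADH (-0.42) at 2 h in MB468, and HADHB at 12 h against 2 h in MB468 (0.010). In the comparisons with turned values the median of all genes moved as well, at 12 h against 2 h in MB468 to 0.17. In MB468res-R8 that median was 0 at 12 h and 0.05 at 12 h against 2 h. With at least 10 counts in every library, 2 were called in MB468 and 1 in MB468res-R8 at 0.5 h, as with DESeq2's Wald test (2 and 1), and DESeq2 size factors or a fit to the compared groups alone called 1 in MB468res-R8 at 0.5 h. At 12 h the falls in MB468 (9) and the difference between the lines (8) stayed at 9 to 10 and 8 to 9 under every alternative run. Of 1040 single-enzyme results under these alternatives, 937 kept direction and call, 24 lost the call, 21 gained it, 8 turned, and 50 that were called in neither fit changed sign, 22 of them with spike-in scaling. With each library left out in turn, the counts ranged from 4 to 5 at 0 h, 0 to 3 and 0 to 1 at 0.5 h (MB468 and MB468res-R8), 9 to 9 and 4 to 6 at 12 h, and 8 to 9 for the difference, with 21 of 960 results losing and 10 gaining the call, no called value turning, and 76 uncalled values changing sign.

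Replicate numbers were not used as pairs in the main fit. Same-numbered libraries deviated together at a mean r of 0.00546 in MB468 at 12 h and -0.145 in MB468res-R8. The mean was highest in MB468res-R8 at 2 h against 0 h (0.277, pairs from -0.0294 to 0.466). In no comparison was every pair above 0.1. With the replicate block the counts were 9 and 6 at 12 h and 8 for the difference, and 1 call was lost, ACADSB between the lines at 12 h (0.22, adjusted p = 0.0527). Counting error limits ACADS, ACADSB, and ECI2 most.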
